A study of Homo sapiens with 24 samples.

Results

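The gene set analysed here holds 42 genes of central carbon metabolism, chosen by name with earlier results of these data known. They are 2 glucose carriers, 15 enzymes of glycolysis, 2 lactate dehydrogenases, 5 enzymes of the pentose phosphate pathway, 4 subunits of the pyruvate dehydrogenase complex, 3 of its kinases and 11 proteins of the TCA cycle. For each gene, the RefSeq accession with the highest mean count was followed through 24 RNA-seq libraries. A tested accession was found for 29 of the 42 genes, out of 10167 tested accessions of 9383 genes. The other 13 genes had at most 4.92 counts per library on average and were not tested.

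The libraries came from Nalm6 cells, an established human B-cell precursor leukemia line. The cells had been transduced with a lentiviral shRNA and selected as populations. The shRNA was directed against no human gene (shNS), G9a, GLP or HP1γ (shG9a, shGLP and shHP1g). The targets, encoded by EHMT2, EHMT1 and CBX3, are 2 histone methyltransferases and a chromatin reader that serve the glucocorticoid receptor as coregulators. Each of the 4 lines was treated for 8 h with 100 nM dexamethasone (dex), a synthetic glucocorticoid, or with the vehicle ethanol, in 3 biological replicates on different days. All groups thus carried an shRNA, and each depletion was read against shNS, so the comparisons of the 3 depletions share the shNS libraries.

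Glycolysis splits glucose into pyruvate in the cytosol and yields ATP and NADH along the way. The pentose phosphate pathway branches off after the first phosphorylation and supplies NADPH and the ribose of nucleotides, while pyruvate is either reduced to lactate or enters the mitochondrion, where the pyruvate dehydrogenase complex feeds it to the TCA cycle. Proliferating lymphoid blasts use glucose heavily, and glucocorticoids are known to restrain glucose uptake in lymphoid cells.

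Library totals ran from 9289533 to 14387770 counts with a median of 11132064.5. Levels are given as CPM, which are counts scaled to library size with upper quartile factors. The libraries furthest from the rest by their median correlation with the others were at 0.985 for shG9a dex replicate 2, 0.987 for shHP1g dex replicate 1 and 0.989 for shHP1g ethanol replicate 1, against at least 0.990 for the others. Dex raised TSC22D3, an established glucocorticoid target, by a log2 fold change of 3.51 averaged over the 4 lines. The accession of EHMT1 had 2.97, 1.66 and 3.21 CPM in shGLP ethanol libraries against 3.73, 4.6 and 3.91 CPM in shNS (log2 fold change -0.65, adjusted p = 0.0923, edgeR). That of CBX3 had 1.59, 2.88 and 2.63 CPM in shHP1g dex libraries against 3.59, 4.12 and 3.23 CPM in shNS (log2 fold change -0.61, adjusted p = 0.142, edgeR). Both rows were lower in 3 of 3 replicates without passing the test, at 18 to 50 reads per library in these groups. Such low counts cannot settle how far a target was depleted. The other treatment of each line is not given for these rows, and EHMT2 was not analysed here. The paper reports efficient depletion of each target, as protein and as mRNA. Of 12 markers of B-cell precursors, CD79A, VPREB3, IGLL1 and MME exceeded 3 counts on average, whereas CD79B, CD22 and TCF3 were at 0.

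How far a row can be read as its gene depended on the number of accessions. All 14 members with 1 accession were tested and had a median of 2508.917 counts. The 16 members with 3 or 4 accessions had a median of 4.396 counts, and the 8 with 5 or more had 5.604 counts. The same held over all genes with a protein-coding accession: 53.9% of those with 1 accession passed the filter on low counts, against 25.1% of those with 3 or 4. GAPDH, one of the most abundant enzymes of most cells, had 45.708 counts in its best row, and PKM (the pyruvate kinase of proliferating cells) had 3. GPI, PFKM, DLD, SDHA and MDH1 had 0 counts in every library. A row of a gene with several accessions therefore gives neither the level of the gene nor its absence, and its changes are those of the reads that were assigned to that accession.

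**Figure D1:**
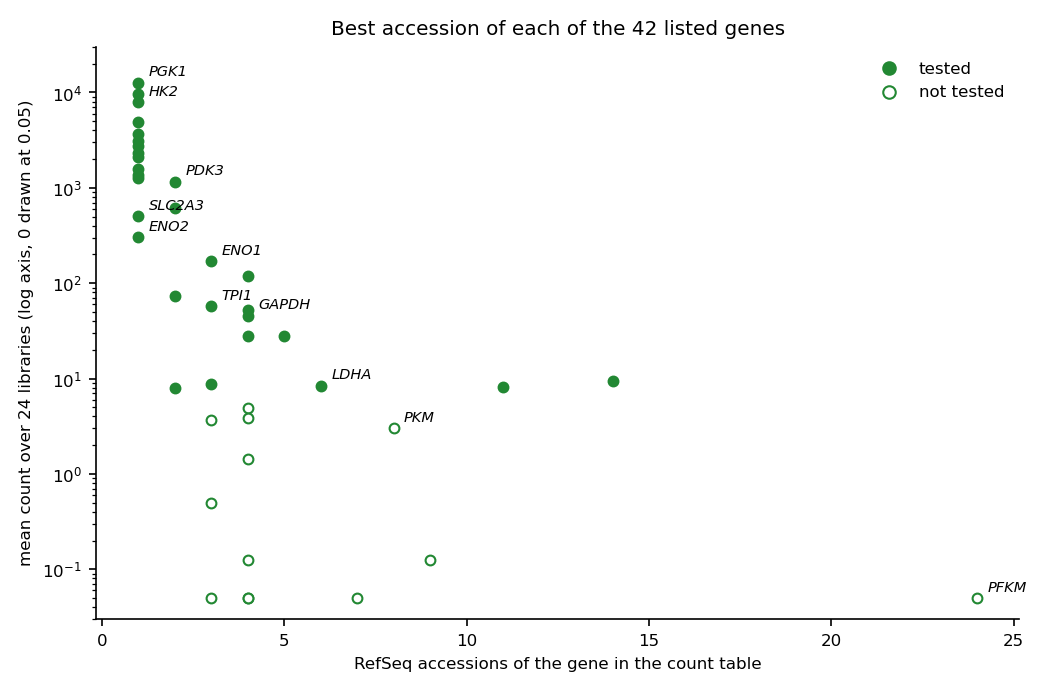
Mean count over 24 libraries (log axis) of the best accession of each listed gene against the number of RefSeq accessions of that gene in the count table. Filled points were tested. The 14 genes with 1 accession have 301.708 counts or more, while untested genes (open) have 3 or more accessions and at most 4.92 counts.

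Among the 14 members with 1 accession, levels could be compared per length, as CPM per kilobase of the MANE Select transcript, in the shNS ethanol libraries. Transaldolase (TALDO1) was highest at 377 ± 15.4 (SD, n = 3), followed by citrate synthase (CS) at 318 ± 27.2, the phosphoglycerate kinase PGK1 at 254 ± 5.02 and the succinate dehydrogenase subunit SDHB at 248 ± 6.42. The ranges of PGK1 and SDHB overlapped. Fumarase (FH) had 191 ± 6.95, the succinyl-CoA ligase subunit SUCLG1 163 ± 3.52 and hexokinase 2 (HK2), which traps glucose in the cell by phosphorylation, 130 ± 12.1. DLAT, RPIA and ALDOC lay close together at 78.1 ± 6.69, 72.3 ± 5.98 and 70.7 ± 12.8, with overlapping ranges. The glucose carriers differed: SLC2A1 (GLUT1) had 58.5 ± 3.58 and SLC2A3 (GLUT3) 11.1 ± 1.24 CPM per kilobase. The neuronal enolase ENO2 was lowest at 9.93 ± 1.66, and its range overlapped that of SLC2A3.

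The first comparison asked what dex did to these genes, averaged over the 4 lines. Dex lowered most of the well-counted members by modest amounts. Of the 29 tested members, 16 were called at an adjusted p of at most 0.05, 15 of them lower and 1 higher, where 23.8% of all tested accessions were called, 13.4% lower and 10.3% higher (edgeR quasi-likelihood test, all 24 libraries, replicate as a block). The falls ranged from 26.9% for HK2 to 6.67% for SDHB, and no member changed by 2-fold, as 1.5% of all tested accessions did. Over the members, the median log2 fold change was -0.19, against -0.01 over all tested accessions. The share called grows with counts, so the 15 members with at least 500 counts are set beside the 3070 accessions at that level: 12 of 15 members (80%) were called lower, against 29.8% of those accessions, and the medians were -0.23 and -0.04. Some markers of other cell types also fell with dex. Of 5 myeloid markers 2 were tested and 1 was called lower (median log2 fold change -0.77), and their summed level was 4.5 to 8.24 CPM in shNS ethanol libraries and 3.07 to 3.61 CPM in dex, and 26.8 to 34.3 and 21 to 30.4 CPM in shGLP cells. In shG9a cells it was 6.77 to 8.97 and 4.75 to 7.18 CPM, and in shHP1g cells 4.45 to 11.9 and 3.01 to 9.64 CPM. Of 4 fibroblast markers COL1A1 was tested and called lower (-0.49), at 24.917 counts on average. ITGAM (myeloid) and DCN (fibroblast) were at 0 in every library, and COL1A2 and COL3A1 had at most 2 counts in any library. No T cell, erythroid or epithelial marker was tested. The libraries are of a cultured line, and whether other cells were present, or had a part in the falls of the members, was not tested. In bulk RNA a lower level per cell and fewer cells at the old level cannot be told apart.

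By step, both glucose carriers, 3 of 5 tested members of upper glycolysis, 4 of 5 of lower glycolysis, 1 of 4 of the pentose phosphate pathway, the pyruvate dehydrogenase subunit DLAT and 4 of 8 of the TCA cycle fell. Neither lactate dehydrogenase and neither tested kinase of pyruvate dehydrogenase was called. The rows of LDHA and LDHB, at 3 to 13 and 5 to 16 reads per library, and of PDK1, at 14 to 47, are each 1 of several accessions. They can show little of the lactate step or of PDK1. Fitted values were below 0 in all 4 lines for 15 of 29 members (51.7%), against 21.9% of all tested accessions, and for 12 of 15 members with at least 500 counts (80%), against 39.4% of accessions at that level.

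**Figure D2:**
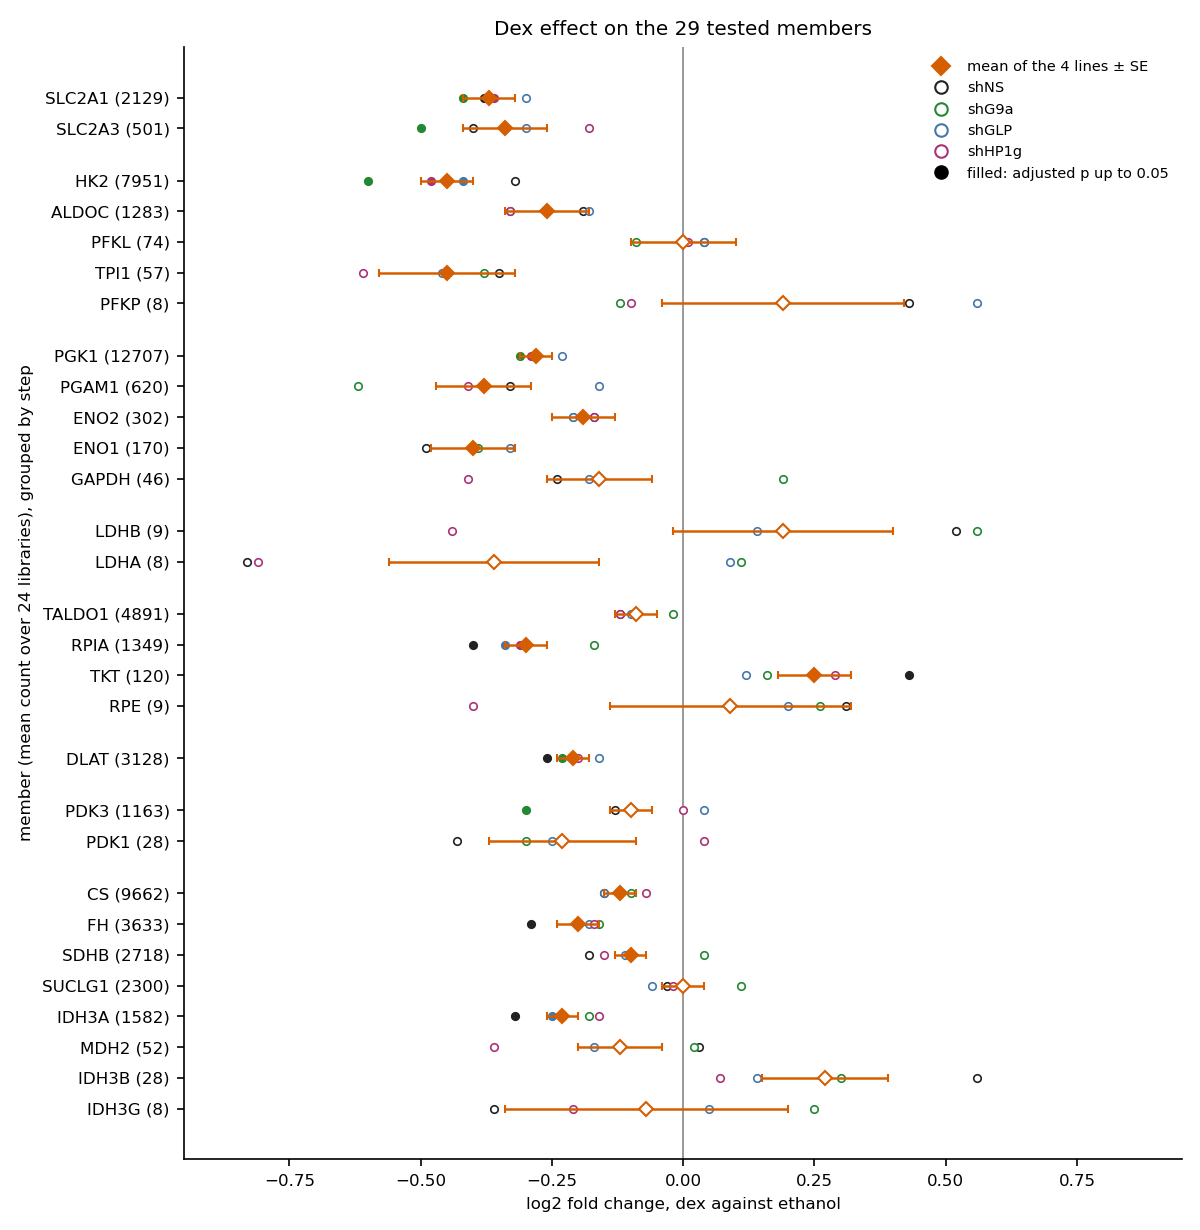
Log2 fold change of dex against ethanol for the 29 tested members, grouped by step, with the mean count in parentheses. Diamonds show the mean of the 4 lines ± SE from the edgeR fit, circles the single lines, and filled symbols an adjusted p of at most 0.05. Of the 16 filled diamonds, 15 lie left of 0, and TKT lies right of it at 0.25.

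The glucose carriers come first. SLC2A1, the carrier that supplies most basal glucose uptake, lies on chromosome 1 at 43391024 to 43424564 (GRCh37, minus strand). In shNS cells it had 184, 202 and 207 CPM in ethanol and 141, 153 and 162 CPM in dex. It went from 219, 288 and 194 to 152, 184 and 184 CPM in shG9a cells, and from 186, 252 and 204 to 168, 179 and 169 CPM in shGLP cells. In shHP1g cells the values were 188, 267 and 191 CPM in ethanol and 154, 180 and 167 CPM in dex. Every dex library was below every ethanol library of its own line, and the mean log2 fold change was -0.37 (SE 0.05, adjusted p = 3.03e-06, edgeR, lower in 12 of 12 replicate pairs).

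SLC2A3, the high-affinity carrier known from neurons and leukocytes (chromosome 12, 8071826 to 8171603), had 45.6, 44.6 and 36.9 CPM in shNS ethanol libraries and 36, 32.8 and 27.5 CPM in dex. In shG9a cells it went from 63.5, 91.9 and 50.1 to 50.9, 50.2 and 42.3 CPM, and in shGLP cells from 43.7, 57.2 and 32.7 to 41.8, 37.1 and 29.4 CPM. Only in shNS cells did the groups not overlap. In shHP1g cells it went from 55.5, 49.6 and 33.5 to 57.9, 33.9 and 30.9 CPM, where replicate 1 was the one pair of the 12 that did not fall. The mean log2 fold change was -0.34 (SE 0.08, adjusted p = 0.00175, edgeR), and 0.0535 was the adjusted p without replicate 2.

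In upper glycolysis the largest fall was that of HK2 (chromosome 2, 75061254 to 75120486). It had 671, 806 and 720 CPM in shNS ethanol libraries and 513, 595 and 655 CPM in dex. In shG9a cells it went from 809, 1115 and 750 to 513, 595 and 647 CPM, in shGLP cells from 720, 1067 and 829 to 605, 665 and 661 CPM, and in shHP1g cells from 649, 1043 and 748 to 487, 625 and 626 CPM. Ethanol and dex did not overlap within any line, although the ethanol libraries of replicate 2 stood far above their group in the 3 depleted lines. The mean log2 fold change was -0.45 (SE 0.05, adjusted p = 6.39e-07, edgeR, lower in 12 of 12 pairs).

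TPI1, the triosephosphate isomerase, was read at 35 to 136 counts per library from 1 of its 3 accessions. In shNS cells it had 3.73, 4.41 and 4.5 CPM in ethanol and 3.22, 3.44 and 3.31 CPM in dex. In the shG9a line it went from 7.8, 11.7 and 3.8 to 4.23, 7.26 and 5.85 CPM, and in shGLP cells from 5.43, 8.21 and 3.78 to 4.97, 4.34 and 3.26 CPM. In shHP1g cells it went from 4.83, 8.71 and 4.81 to 4.42, 3.79 and 3.67 CPM. The groups were apart in shNS and shHP1g cells only. The mean log2 fold change was -0.45 (SE 0.13, adjusted p = 0.015, edgeR), and it did not pass the test without the replicate 2 ethanol libraries of the depleted lines (adjusted p = 0.287), without replicate 2 (0.353) or without the block (0.0573).

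ALDOC, the brain-type aldolase, had 129, 122 and 90.2 CPM in shNS ethanol libraries and 103, 103 and 90.2 CPM in dex. It went from 154, 224 and 96.4 to 112, 149 and 105 CPM in shG9a cells and from 111, 169 and 99.6 to 119, 118 and 91.9 CPM in shGLP cells. In shHP1g cells it went from 82.5, 150 and 85.2 to 68.2, 89.5 and 88 CPM. The groups overlapped in every line, 8 of 12 pairs fell, and the mean log2 fold change of -0.26 (SE 0.08, adjusted p = 0.0247, edgeR) was likewise lost without those 3 libraries (adjusted p = 0.386). It was also lost without replicate 1 (0.0625) or 2 (0.422), without the block (0.135) and with DESeq2 (0.0739). The phosphofructokinase rows PFKL and PFKP, with 74.083 and 8.208 counts on average, had values of 0.00 and 0.19 and were not called.

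In lower glycolysis PGK1, which makes the first ATP of the pathway, was the most highly counted member (chromosome X, 77166236 to 77384792). It had 1197, 1238 and 1239 CPM in shNS ethanol libraries and 954, 1028 and 1037 CPM in dex. The shG9a libraries went from 1236, 1426 and 1236 to 973, 1082 and 1078 CPM, and in shGLP cells from 1183, 1447 and 1299 to 1093, 1130 and 1111 CPM. In shHP1g cells it went from 967, 1356 and 1145 to 806, 1025 and 1000 CPM, the only line in which the groups overlapped. By line the log2 fold changes were -0.28, -0.31, -0.23 and -0.29, with a mean of -0.28 (SE 0.03, adjusted p = 1.33e-06, edgeR, lower in 12 of 12 pairs).

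PGAM1, the phosphoglycerate mutase, was read from 1 of its 2 accessions. It had 58.8, 60.2 and 61.1 CPM in shNS ethanol libraries and 41.5, 49 and 52.7 CPM in dex. It went from 67, 80.4 and 53.2 to 50.6, 31.2 and 47.8 CPM in shG9a cells and from 59.6, 66.7 and 59 to 59.9, 57.1 and 49.1 CPM in shGLP cells. In shHP1g cells it went from 45.5, 88.2 and 58 to 37, 51.9 and 54.5 CPM. The groups were apart in shNS and shG9a cells and overlapped in the others, with a mean log2 fold change of -0.38 (SE 0.09, adjusted p = 0.00407, edgeR). Without the replicate 2 ethanol libraries of the depleted lines the adjusted p was 0.0709, and without replicate 2 it was 0.0662. PGAM1 shares most of its sequence with its retrocopy PGAM4, whose row had 1575.958 counts on average and a mean log2 fold change of -0.33 (SE 0.06, adjusted p = 0.000184, edgeR), so the split of reads between the pair is uncertain. PGAM4 (chromosome X, 77223446 to 77225135, minus strand) also lies within the annotated span of PGK1 on the other strand, and whether strand was used in counting is not given in the sources used here.

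ENO1, the enolase found in most tissues, had 16.5, 14.8 and 17.5 CPM in shNS ethanol libraries and 10, 12.1 and 12.8 CPM in dex. In shG9a cells it went from 19, 25.4 and 15 to 14.6, 15.2 and 15.3 CPM, in shGLP cells from 18.9, 17.6 and 15.2 to 13.2, 13.6 and 14.3 CPM, and in shHP1g cells from 12.4, 18.6 and 16.5 to 9.82, 12.1 and 14 CPM. The groups did not overlap in shNS and shGLP cells. The mean log2 fold change was -0.40 (SE 0.08, adjusted p = 0.000539, edgeR, lower in 11 of 12 pairs). The ENO1 row is 1 of 3 accessions of the gene, at 109 to 295 reads per library. ENO2 was called at -0.19 (SE 0.06, adjusted p = 0.0282, edgeR, lower in 12 of 12 pairs), but not without those 3 libraries (adjusted p = 0.258), replicate 2 (0.297), replicate 3 (0.0656) or the block (0.168), nor with TMM factors (0.0528). The GAPDH row, at 24 to 62 reads per library, had -0.16 (SE 0.10) and was not called.

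**Figure D3:**
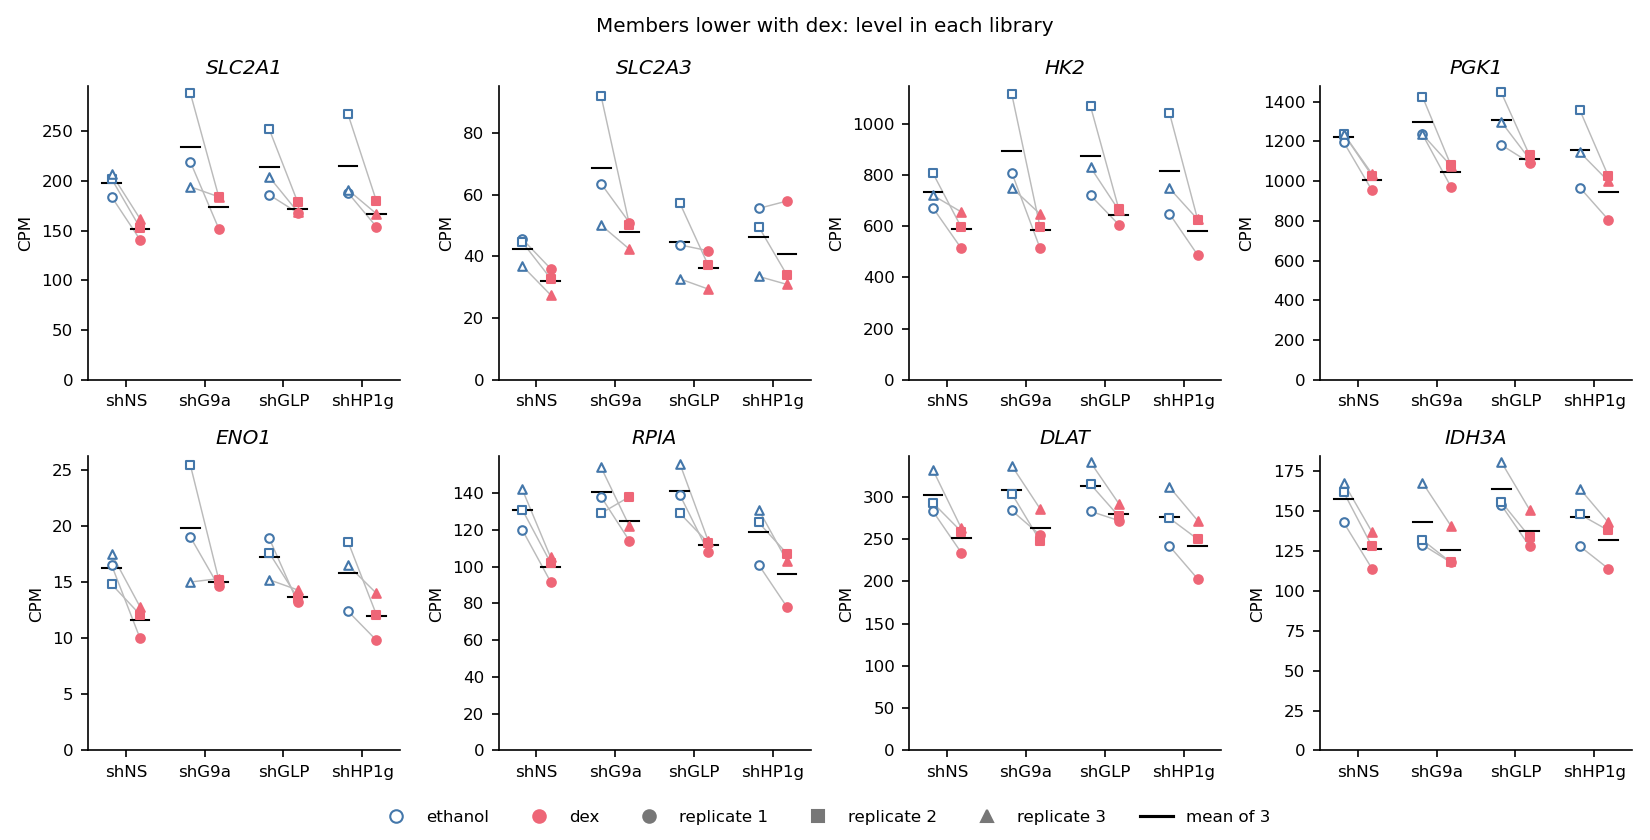
CPM of 8 members in each library (y axis from 0), by line on the x axis, with ethanol as open and dex as filled symbols, replicates by shape and joined by a line, and bars for the mean of 3. SLC2A1 and HK2 were lower in every dex library than in every ethanol library of the same line.

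A few promoters are shown because they belong to the glycolytic members whose fall was stable under all alternatives (SLC2A1, HK2, PGK1 and ENO1) and to ENO2, described below. They were taken from RefSeq (GRCh38.p14, another build than that of the counts) as the 250 bases before the start, with the letters ACGTG and their reverse complement CACGT in capitals. ACGTG is the core shared by hypoxia response elements and the CACGTG E-box of MYC and carbohydrate response factors.
SLC2A1 (chr1:42958869-42959118, minus strand): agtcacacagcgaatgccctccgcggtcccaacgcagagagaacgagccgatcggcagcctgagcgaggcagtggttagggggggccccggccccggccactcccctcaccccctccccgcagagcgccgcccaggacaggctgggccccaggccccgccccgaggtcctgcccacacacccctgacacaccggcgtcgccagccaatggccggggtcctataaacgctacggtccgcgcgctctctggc
HK2 (chr2:74833877-74834126, plus strand): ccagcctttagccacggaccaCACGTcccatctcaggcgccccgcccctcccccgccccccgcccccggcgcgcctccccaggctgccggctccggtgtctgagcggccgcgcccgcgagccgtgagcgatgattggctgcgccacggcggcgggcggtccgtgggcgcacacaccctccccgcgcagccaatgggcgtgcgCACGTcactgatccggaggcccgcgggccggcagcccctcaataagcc
PGK1 (chrX:78103998-78104247, plus strand): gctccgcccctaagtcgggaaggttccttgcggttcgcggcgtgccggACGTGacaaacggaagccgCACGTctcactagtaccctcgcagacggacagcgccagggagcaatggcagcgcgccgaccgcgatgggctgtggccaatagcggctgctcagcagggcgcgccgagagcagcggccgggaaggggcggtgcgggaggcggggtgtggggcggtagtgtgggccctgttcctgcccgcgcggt
ENO1 (chr1:8878687-8878936, minus strand): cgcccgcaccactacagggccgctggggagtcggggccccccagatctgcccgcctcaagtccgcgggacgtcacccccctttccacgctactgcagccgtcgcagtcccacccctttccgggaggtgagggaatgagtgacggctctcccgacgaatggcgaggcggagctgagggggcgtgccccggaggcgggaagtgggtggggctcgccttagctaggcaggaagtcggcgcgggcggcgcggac
ENO2 (chr12:6914330-6914579, plus strand): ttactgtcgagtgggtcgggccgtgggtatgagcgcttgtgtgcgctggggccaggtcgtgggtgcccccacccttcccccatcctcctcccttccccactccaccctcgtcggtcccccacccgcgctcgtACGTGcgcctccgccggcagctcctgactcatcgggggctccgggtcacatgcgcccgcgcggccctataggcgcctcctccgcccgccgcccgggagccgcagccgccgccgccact

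The letters begin 229 and 48 bases before the start in HK2, 202 and 183 bases before it in PGK1, and 118 bases before it in ENO2, whereas the stretches of SLC2A1 and ENO1 hold none. The motifs were searched on both strands in windows that run on to 50 bases after the start. RefSeq had 65 such windows for 40 of the 42 members, of 35116 in all. ACGTG was in 22 of the 65 windows (33.8%) and in 21.4% of all windows, and CACGTG, which contains it, in 7 (10.8%) and in 7.26%. AGAACA, the core of glucocorticoid response elements, was in 4 windows (6.15%) and in 14.8% of all, and the GC box GGGCGG in 40 (61.5%) and in 45%. The AGAACA windows were those of ALDOA and GPI, which were not tested, and no window of a tested member held these letters. HK2 had another such window (chr2:74834920-74835219, plus strand), not printed here, with 4 matches of ACGTG and 2 of CACGTG. Windows of a gene with several starts can overlap, and a match describes letters only.

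In the pentose phosphate pathway 2 members moved apart. RPIA, the isomerase that makes ribose 5-phosphate, had 120, 131 and 142 CPM in shNS ethanol libraries and 91.7, 102 and 105 CPM in dex. In shG9a cells it went from 138, 129 and 154 to 114, 138 and 122 CPM, in shGLP cells from 139, 129 and 156 to 108, 113 and 114 CPM, and in shHP1g cells from 101, 124 and 131 to 78, 107 and 103 CPM. The groups were apart in shNS and shGLP cells and overlapped in the other lines, and replicate 2 of shG9a, whose dex library is the one furthest from the rest, was the only pair that did not fall. The mean log2 fold change was -0.30 (SE 0.04, adjusted p = 6.75e-06, edgeR).

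TKT, the transketolase, was the one member called higher. It had 8.85, 9.01 and 9.08 CPM in shNS ethanol libraries and 11.5, 12.4 and 12.4 CPM in dex. In shG9a cells it went from 12.3, 10.2 and 13.4 to 13, 11.4 and 15.8 CPM, in shGLP cells from 8.1, 9.32 and 8.6 to 8.78, 8.67 and 11 CPM, and in shHP1g cells from 8.32, 10.2 and 9.08 to 10.4, 12.9 and 10.3 CPM. Ethanol and dex were apart in shNS and shHP1g cells only. The mean log2 fold change was 0.25 (SE 0.07, adjusted p = 0.00872, edgeR, higher in 11 of 12 pairs), from 1 of its 4 accessions, and the call was lost without replicate 1 (adjusted p = 0.0544) or 3 (0.133) and with no filter on low counts (0.0582). TALDO1, like RPIA and TKT an enzyme of the non-oxidative branch, had 4890.583 counts on average. Its value was -0.09 (SE 0.04, adjusted p = 0.131, edgeR), and RPE, at 3 to 18 reads per library, was not called.

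The mitochondrial members come next. DLAT, the acetyl-transferring subunit of pyruvate dehydrogenase, had 283, 293 and 332 CPM in shNS ethanol libraries and 234, 259 and 263 CPM in dex, with no overlap, and its mean log2 fold change was -0.21 (SE 0.03, adjusted p = 6.05e-06, edgeR, lower in 12 of 12 pairs). IDH3A, the catalytic subunit of the NAD-dependent isocitrate dehydrogenase, had 143, 162 and 168 CPM in shNS ethanol libraries and 114, 128 and 137 CPM in dex, again apart, with -0.23 (SE 0.03, adjusted p = 3.63e-06, edgeR, lower in 12 of 12 pairs). These 2 calls held in every alternative. FH had -0.20 (SE 0.04), CS -0.12 (SE 0.03) and SDHB -0.10 (SE 0.03), with adjusted p of 0.000873, 0.0093 and 0.0391 in the same edgeR fit. CS fell in 12 of 12 pairs, and FH and SDHB in 11 of 12. The call of FH was lost without replicate 3 (adjusted p = 0.0899). That of CS was lost without the block (0.227), without replicate 2 (0.0522) or 3 (0.158) and without the 3 replicate 2 ethanol libraries of depleted cells (0.051). That of SDHB was lost without the block (0.169), with TMM factors (0.114), with DESeq2 (0.0855) and without replicate 1 (0.168) or 3 (0.415). SUCLG1, with 2300.292 counts on average, had 0.00 (SE 0.04) and was not called, and the rows of IDH3B, IDH3G and MDH2, at 3 to 63 reads per library, were not called. PDK3, a kinase that switches pyruvate dehydrogenase off, had -0.10 (SE 0.04, adjusted p = 0.0929, edgeR), from 1 of its 2 accessions.

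Line by line, each comparison rests on 3 pairs, and fewer members passed the test than for the mean of the lines. In shNS cells 7 of 29 members were called, where 9.95% of all tested accessions were: SLC2A1 (-0.38), PGK1 (-0.28), RPIA (-0.40), DLAT (-0.26), IDH3A (-0.32) and FH (-0.29) fell and TKT (0.43) rose. In shG9a cells 6 of 29 fell (background 6.24%), namely SLC2A1 (-0.42), SLC2A3 (-0.50), HK2 (-0.60), PGK1 (-0.31), DLAT (-0.23) and PDK3 (-0.30). In shGLP cells HK2 (-0.42), RPIA (-0.34) and IDH3A (-0.25) fell, 3 of 29 with a background of 3.29%. In shHP1g cells SLC2A1 (-0.36), HK2 (-0.48), PGK1 (-0.29) and RPIA (-0.31) fell, 4 of 29 with a background of 3.22%. The 20 calls belonged to 10 members, and no member was called in all 4 lines.

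These counts per line depended on the fit. The share of all tested accessions called is given for the main fit only. Whether the counts below moved with it was not tested. Without the replicate block they were 1, 0, 0 and 0 in shNS, shG9a, shGLP and shHP1g cells, and from fits of the 2 compared groups alone 15, 0, 8 and 11. The count in shNS cells was 1 without replicate 3. Without the replicate 2 ethanol libraries of the depleted lines, the counts in shG9a and shHP1g cells were 2 and 0.

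Whether a depletion altered the dex effect was tested by interaction terms. No member was called for shG9a, shGLP or shHP1g by edgeR, and none by DESeq2, where 0.0885%, 0.118% and 0.0197% of all tested accessions were called by edgeR. At an unadjusted p of at most 0.05 there were 1, 0 and 0 members, beside 6.75%, 3.89% and 3.81% of all tested accessions. The one was SDHB, whose dex effect was 0.22 higher on the log2 scale in shG9a than in shNS cells (SE 0.10, unadjusted p = 0.0332, adjusted p = 0.704, edgeR). It had 235, 227 and 251 CPM in shG9a ethanol libraries and 215, 288 and 234 CPM in dex, and only the library furthest from the rest, replicate 2, lay above the ethanol range. For HK2 the terms were -0.28, -0.10 and -0.16 with shG9a, shGLP and shHP1g (SE 0.15 each), beside a dex effect of -0.32 (SE 0.11) in shNS cells.

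The next comparisons set each depleted line against shNS without hormone. In shG9a cells 2 of 29 members were called, both higher, where 3.73% of all tested accessions were called. ENO2 (chromosome 12, 7022909 to 7032861), the enolase best known from neurons, had 47, 46.4 and 28.7 CPM in shG9a ethanol libraries against 26.7, 22.5 and 19.1 CPM in shNS. Each shG9a library lay above every shNS library, and the log2 fold change was 0.82 (SE 0.12, adjusted p = 0.000287, edgeR). SLC2A3, with the values given above, was also higher in every shG9a ethanol library than in every shNS one, with 0.68 (SE 0.15, adjusted p = 0.0103, edgeR), yet its call was lost without the 3 replicate 2 ethanol libraries (adjusted p = 0.125) without the replicate block (0.218), without replicate 2 (0.105) and without replicate 3 (0.161).

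With dex, 3 of 29 members were higher in shG9a than in shNS cells, where 8.8% of all tested accessions were called. ENO2 had 37.3, 39.2 and 27.9 CPM in shG9a dex libraries and 23.1, 19 and 18.3 CPM in shNS (log2 fold change 0.78, SE 0.12, adjusted p = 0.000224, edgeR). It was the member whose call in shG9a cells held in every alternative in both treatments. SLC2A3 had 50.9, 50.2 and 42.3 CPM against 36, 32.8 and 27.5 CPM (0.58, SE 0.15, adjusted p = 0.0215, edgeR), and its adjusted p was 0.216 without replicate 3 and 0.222 without the block. RPIA was 0.32 higher (SE 0.08, adjusted p = 0.0162, edgeR), with 114, 138 and 122 CPM against 91.7, 102 and 105 CPM, but not without shG9a dex replicate 2 (adjusted p = 0.111), replicate 2 (0.0936), replicate 3 (0.116) or the block (0.133), nor in a fit of the 2 groups alone (0.0796). In all 3 the groups were apart. TPI1 had values as large as those of ENO2, 0.82 (SE 0.25) in ethanol and 0.79 (SE 0.27) in dex, and did not pass the test (adjusted p = 0.0795 and 0.0703, edgeR), with 1 of 3 shG9a ethanol libraries inside the shNS range. The other enolase, ENO1, had 0.27 (SE 0.15, adjusted p = 0.438, edgeR) in ethanol and 0.37 (SE 0.16, adjusted p = 0.166, edgeR) in dex. The difference between ENO1 and ENO2 was not tested.

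**Figure D4:**
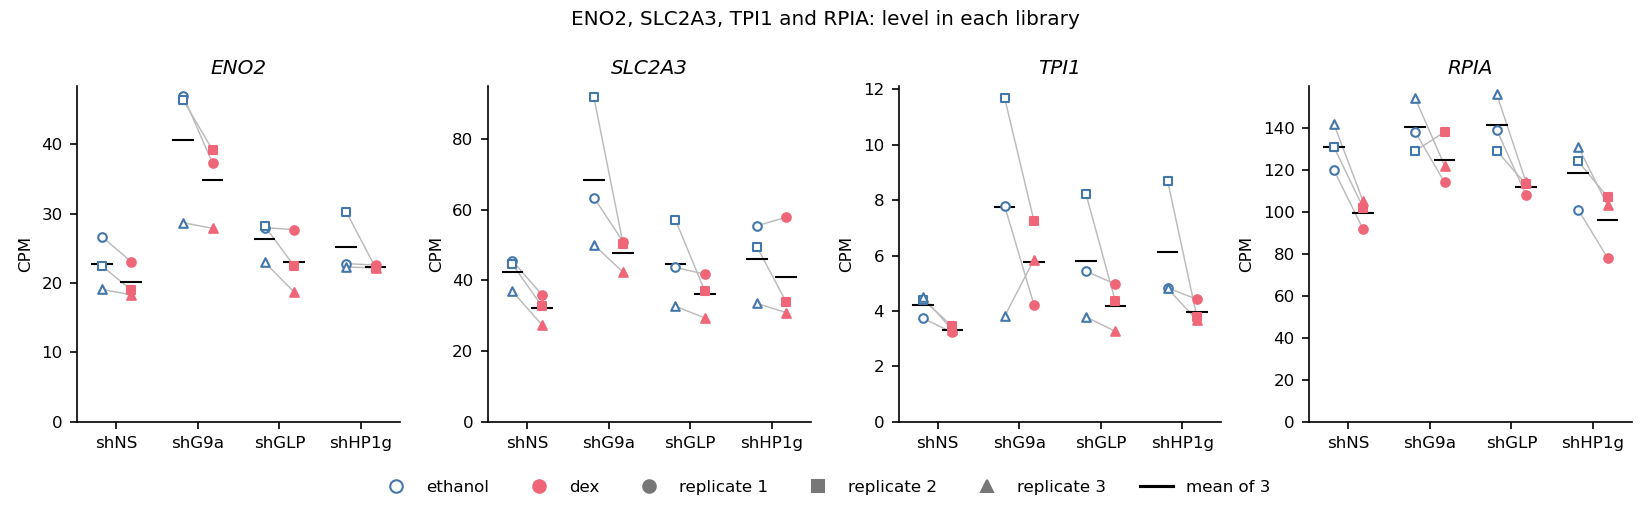
CPM of ENO2, SLC2A3, TPI1 and RPIA in each library (y axis from 0) by line, with ethanol as open and dex as filled symbols, replicates by shape, and bars for the mean of 3. The shG9a libraries of ENO2 lie between 27.9 and 47 CPM, above all shNS libraries of either treatment, and replicate 3 is the lowest of each shG9a group of ENO2 and SLC2A3.

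GLP depletion and HP1γ depletion gave 1 call between them. In shGLP cells no member was called in ethanol or in dex by edgeR or by DESeq2, where 3.61% and 5.77% of all tested accessions were called by edgeR. At an unadjusted p of at most 0.05 there were 1 and 6 members of 29, beside 13.1% and 16.5% of all tested accessions. The largest values among members with at least 500 counts were 0.24 for HK2 in ethanol (SE 0.11, adjusted p = 0.316, edgeR) and 0.28 for PDK3 in dex (SE 0.08, adjusted p = 0.0505, edgeR). In shHP1g cells no member was called in ethanol by edgeR or DESeq2 (background 2.91%, 1 member and 14.4% of all tested accessions at an unadjusted p of at most 0.05), and 1 of 29 was called in dex (background 4.09%). It was PDK3, with 112, 107 and 111 CPM in shHP1g dex libraries against 92.8, 87.1 and 88.1 CPM in shNS (0.30, SE 0.08, adjusted p = 0.0368, edgeR), without overlap, and the call was lost without replicate 1 (adjusted p = 0.0978) or 3 (0.333), without the block (0.109) and with no filter on low counts (0.337). Of 5 markers of myeloid cells, 3 exceeded 3 counts on average and 1 was at 0, and their sum was 26.8 to 34.3 CPM in shGLP ethanol libraries against 4.5 to 8.24 CPM in shNS, and their part in these values was not tested.

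One feature of the libraries ran through the glycolytic members. In ethanol, replicate 2 was the highest of the 3 replicates for 7 of the 8 glucose entry and glycolysis members with at least 100 counts in shG9a cells, in shGLP cells and in shHP1g cells, but for 1 of 8 in shNS cells. Over all tested accessions replicate 2 was highest for 24%, 25%, 26.6% and 23.1% in these groups. For the 6 pyruvate dehydrogenase and TCA members at that level it was highest for 0, 2, 3 and 0. In dex, replicate 2 was highest for 4, 3, 3 and 1 of the 8, and for 33.6%, 27.8%, 26.9% and 27.3% of all tested accessions. Without the 3 replicate 2 ethanol libraries, 11 of the 29 members were called for the mean dex effect in place of 16, and TPI1, ENO2, PGAM1, CS and ALDOC were the ones lost. The share of all tested accessions called in that fit is not given. The cause of the replicate 2 pattern was not tested.

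**Figure D5:**
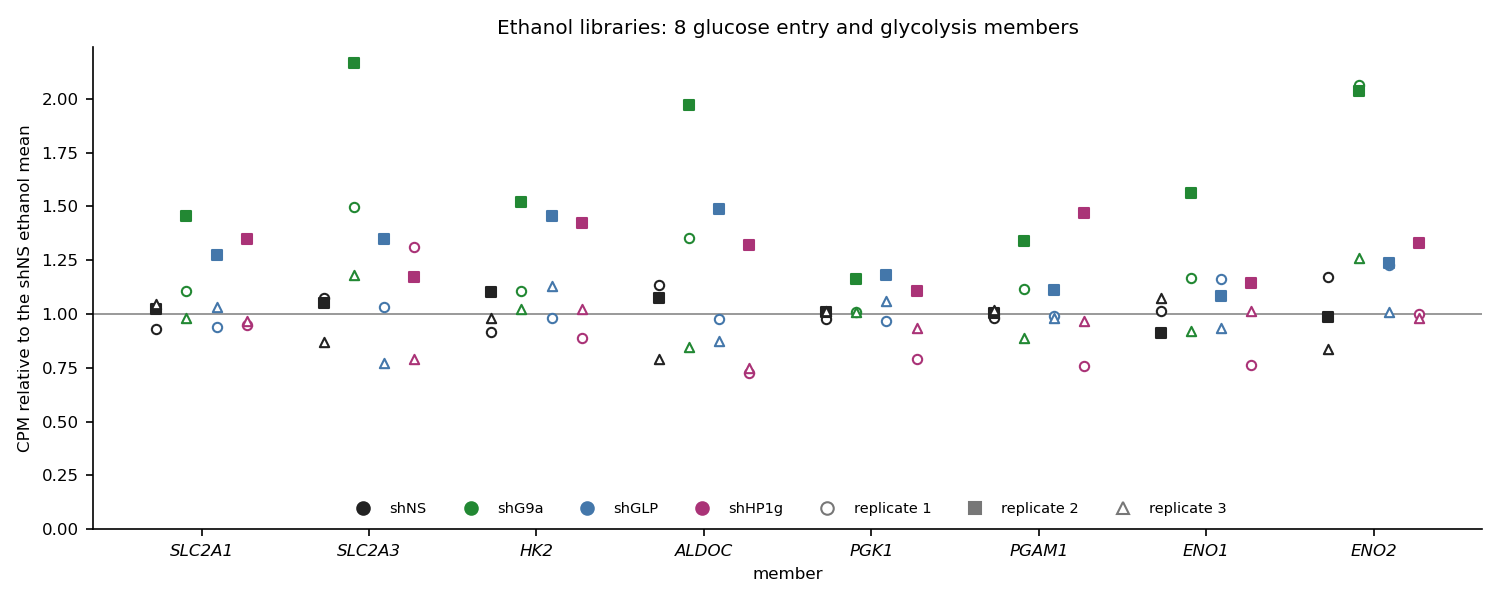
CPM of 8 glucose entry and glycolysis members in the 12 ethanol libraries, relative to the shNS ethanol mean (line at 1), by line (color) and replicate (shape). The filled squares, replicate 2, lie at the top of the shG9a, shGLP and shHP1g groups for 7 of 8 members each, and among the shNS libraries for 1 of 8.

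Of 91 further genes of these pathways and their regulators, 36 were tested. For the mean dex effect 3 of the 36 were called higher and 10 lower. The shares of all tested accessions were 10.3% higher and 13.4% lower. TXNIP, which restrains glucose uptake, had 29.8, 25.6 and 20.9 CPM in shNS ethanol libraries and 70.7, 70.6 and 58.8 CPM in dex, and rose in each line (1.40, 0.72, 0.95 and 0.73 in shNS, shG9a, shGLP and shHP1g cells). In dex it was lower in all 3 depleted lines than in shNS cells (-0.78, -0.71 and -0.83), with adjusted p from 2.81e-06 to 1.71e-05 by edgeR, opposite in sign to its own dex effect. No interaction of dex with a depletion was called for any of the 36 tested genes, TXNIP included. Of all tested accessions 0.0885%, 0.118% and 0.0197% were called for shG9a, shGLP and shHP1g. The TXNIP row is 1 of 2 accessions of the gene. MLXIP, a glucose-sensing transcription factor that drives TXNIP, rose by 0.29 (SE 0.03, adjusted p = 4.34e-08, edgeR), and the fructose carrier SLC2A5 by 0.38 (SE 0.13, adjusted p = 0.0402, edgeR). ARRDC4, the arrestin-domain relative of TXNIP, fell by 0.52 (SE 0.06, adjusted p = 1.92e-06, edgeR), lower in 12 of 12 pairs. The mitochondrial enzymes PCK2 and ME2 fell by 0.40 (SE 0.08) and 0.31 (SE 0.10), with adjusted p of 0.00076 and 0.0226 by edgeR. PDK4, MYC and HIF1A, at 3.667, 3.458 and 1.417 counts on average, were not tested.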

How the data were processed

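Reads had been trimmed, mapped to hg19 (GRCh37) with HISAT2 and quantified on RefSeq genes with GenomicAlignments by the authors. Whether reads shared by several transcripts were counted, and whether strand was used, is not given in the sources used here. The deposited table is named for CPM but holds whole-number counts with differing totals, and was read as counts. The authors' table of all tested genes supplied symbols, and its log2 fold changes and FDR values were not used. Accessions with more than 1 CPM in at least 2 libraries (10167) were tested with edgeR 4.0.16 (R 4.3.3), using upper quartile factors, 8 groups plus the replicate number, quasi-likelihood F tests, Benjamini-Hochberg adjustment over all tested accessions and a limit of 0.05. The replicate block was used in place of the authors' RUV. The labels' protocol places the 3 replicates of a condition on different days, and that a number marks the same day in all groups was assumed. Libraries with the same number had correlations of their deviations from group means above 0 in 84 pairs (0.0122 to 0.5354, 56 above 0.1). No library duplicated another of its own group, and pairs from different groups were not checked for this. Members, gene lists and motifs were chosen with earlier results of these data known. Values in every library are given for the called members with the largest mean dex effects (up to 10) and for those called in both treatments of a depletion. Further calls are named, as are PDK4, TXNIP, MYC, HIF1A and the 6 other pathway genes with the largest called dex effects. A further gene of that list is not reported here. Alternatives were DESeq2 1.42.0, TMM factors, no filter, no block, fits of the compared groups alone, sums over the accessions of a gene, each replicate left out, and 3 sets of libraries left out, the last chosen after seeing the data. The fit was tested on simulated counts. SDs are between the 3 replicates of a group, and SEs come from the quasi-likelihood fit.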

Additional observations from a re-analysis of the deposited data

Results flagged for a closer look

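The GAPDH row moved in opposite directions with dex in shG9a cells and in 2 other depleted lines. It was higher with dex in 3 of 3 replicates of shG9a cells, at 3.9, 3.52 and 4.13 CPM in ethanol and 4.66, 4.1 and 4.37 CPM in dex, and lower in 3 of 3 replicates of shGLP and of shHP1g cells. The dex effect was 0.37 higher on the log2 scale in shG9a than in shGLP cells and 0.60 higher than in shHP1g cells. These differences were not tested. The row is 1 of 4 accessions of the gene, with 24 to 62 reads per library, and its dex effect was not called in any line.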

How the results depend on the processing

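Of 42 calls named for single members, 9 held in all 12 alternatives and none changed direction: the mean dex effects of SLC2A1, HK2, PGK1, ENO1, RPIA, DLAT and IDH3A, and ENO2 in shG9a cells in both treatments. For the mean dex effect, the compared groups are all 8 groups. That alternative therefore repeated the main fit and could lose no call. Sums over accessions left the counts of members with 1 accession unchanged. No share of all tested accessions called is given for the alternatives, so whether the counts of members moved with it was not tested. Without the replicate block, the dex counts in shNS, shG9a, shGLP and shHP1g cells were 1, 0, 0 and 0 in place of 7, 6, 3 and 4, that of shG9a against shNS was 1 in ethanol and 1 in dex in place of 2 and 3, and that of shHP1g in dex was 0 in place of 1. The mean dex effect had 11 calls without the block in place of 16. Fits of the compared groups alone gave 15, 0, 8 and 11 dex calls in the 4 lines, 8 for shG9a in ethanol, 1 for shGLP in ethanol and 5 for shGLP in dex. DESeq2 gave 4 calls for shG9a in ethanol, and no filter on low counts gave 5 in ethanol and 5 in dex. Leaving out 1 replicate, the counts ranged from 1 to 7 (shNS dex), 1 to 6 (shG9a dex), 0 to 2 (shGLP dex), 1 to 1 (shHP1g dex), 10 to 13 (mean dex), 1 to 2 (shG9a against shNS in ethanol), 1 to 3 (shG9a against shNS in dex), 0 to 1 (shGLP against shNS in dex) and 0 to 1 (shHP1g against shNS in dex). Without the 3 replicate 2 ethanol libraries of depleted cells, dex counts were 2 in shG9a and 0 in shHP1g cells, with 1 call for shG9a in ethanol and 1 for shGLP in dex. Without shG9a dex replicate 2 they were 3 in shG9a cells, with 1 for shGLP in dex. Without both shHP1g libraries of replicate 1 they were 11, 6 and 2 in shNS, shGLP and shHP1g cells and 17 for the mean dex effect, with 4 for shG9a in ethanol and 2 for shGLP in dex. The cause of these shifts was not tested. Fits that leave libraries out had fewer samples, and some of them gave more calls than the main fit. Of the 11 members under 100 counts, TPI1 alone was called for the mean dex effect, and their SEs ran from 0.08 to 0.27 on the log2 scale, against 0.03 to 0.09 for the others.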
